A study of Mus musculus with 2 samples.

Results

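Glycolysis breaks glucose down to pyruvate, and many of its steps can be carried out by several isoenzymes, proteins that catalyse the same reaction but are encoded by different genes. Enolase, aldolase and lactate dehydrogenase are known for using different genes in nerve, muscle and other tissues. The genes described here were chosen by name: Aldoa and Aldoc (aldolase, which splits fructose 1,6-bisphosphate), Eno1, Eno2 and Eno3 (enolase, which makes phosphoenolpyruvate), Ldha and Ldhb (the subunits of lactate dehydrogenase, which interconverts pyruvate and lactate), Pkm (pyruvate kinase of muscle, brain and many other tissues), Hk1 (a hexokinase, which phosphorylates glucose) and Gpi1 (glucose-6-phosphate isomerase). All 10 symbols were found. They belong to 11 of the 40276 features, because 2 features carry the symbol Aldoa.

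The data come from 1 section of normal mouse brain and 1 section of normal mouse heart, both formalin-fixed and paraffin-embedded (FFPE, a treatment that crosslinks and breaks RNA) and cut at 5 µm. Total RNA was read out on an array of barcoded spots with spRandom-seq, a method that primes RNA at random positions. For both sections the labels give, under treatment, only that the reverse transcription primer lacked a second cell barcode, and they give no strain, age or treatment of the animals. Each tissue is 1 library (n = 1), so replicates are lacking for each difference below, and p-values are not given. Intervals are at 95% and cover counting error alone, not variation between animals.

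In muscle and brain the isoenzymes have well-known homes. Eno3 is the muscle enolase and Eno2 the neuronal one, long used as a marker of neurons, whereas Eno1 is made in most tissues. Aldoa is the aldolase of muscle and many other tissues, and Aldoc is a brain aldolase known from astrocytes and from Purkinje cells. Ldhb is the subunit that predominates in heart muscle, and Ldha the one that predominates in fast skeletal muscle.

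Whether counts can be assigned to 1 isoform depends on how far the messages differ, so the start of each coding sequence is shown, the first 90 bases from the start codon of the principal transcript (GENCODE mouse release 21 on GRCm38). Capitals mark positions at which the genes of 1 enzyme are not all alike, 33 for enolase, 19 for aldolase and 36 for lactate dehydrogenase.
Eno1: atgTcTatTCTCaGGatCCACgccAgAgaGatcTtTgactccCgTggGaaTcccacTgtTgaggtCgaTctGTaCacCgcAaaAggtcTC
Eno2: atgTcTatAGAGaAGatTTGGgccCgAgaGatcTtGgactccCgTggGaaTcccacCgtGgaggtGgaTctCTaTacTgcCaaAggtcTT
Eno3: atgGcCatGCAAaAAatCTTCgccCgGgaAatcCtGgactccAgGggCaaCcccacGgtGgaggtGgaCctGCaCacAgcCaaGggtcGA
Aldoa: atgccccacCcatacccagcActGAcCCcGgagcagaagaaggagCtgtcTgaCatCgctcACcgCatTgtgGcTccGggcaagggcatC
Aldoc: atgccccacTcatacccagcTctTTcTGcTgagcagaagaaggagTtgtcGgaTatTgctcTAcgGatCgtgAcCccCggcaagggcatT
Ldha: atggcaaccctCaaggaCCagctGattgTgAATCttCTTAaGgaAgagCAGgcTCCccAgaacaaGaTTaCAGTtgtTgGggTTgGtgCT
Ldhb: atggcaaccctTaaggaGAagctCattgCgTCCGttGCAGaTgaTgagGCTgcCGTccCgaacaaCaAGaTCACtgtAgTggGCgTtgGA
Differences were spread along these stretches. Over the whole coding sequence Eno2 and Eno3 were 77.4% identical, Eno1 and Eno2 75.1%, Eno1 and Eno3 76.7%, Aldoa and Aldoc 75.5%, and Ldha and Ldhb 71.1%. The longest run of bases shared within any of these pairs was 26, between Aldoa and Aldoc.

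Eno1 was the exception, because of a near-identical copy elsewhere in the genome. Its coding sequence was 99.4% identical to that of Eno1b, with a shared run of 725 bases, and 83.3% of its 50-base words occurred in the transcript of another gene. Eno1b was listed at 0 counts in both sections. The Eno1 counts are therefore uncertain, since reads from shared stretches may have been dropped or assigned to 1 copy. The same share of coding words was 52.9% for Pkm, 40.9% for Gpi1, 35.6% for Ldhb, 31.0% for Ldha and 19.5% for Aldoa. It was 0 for Aldoc, Eno2, Eno3 and Hk1.

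The genes lie on several chromosomes, with gene spans in the same annotation of 5.52 kb for Aldoa (chromosome 7), 4.81 kb for Aldoc (chromosome 11), 12.2 kb for Eno1 (chromosome 4), 9.62 kb for Eno2 (chromosome 6), 5.31 kb for Eno3 (chromosome 11), 14.2 kb for Ldha (chromosome 7), 17.7 kb for Ldhb (chromosome 6), 23.0 kb for Pkm (chromosome 9), 111 kb for Hk1 (chromosome 10) and 29.01 kb for Gpi1 (chromosome 7). Exons overlap those of Fam57b for Aldoa, Hk1os for Hk1 and Gm26762 for Gpi1 on the other strand, and those of Gm49759 for Pkm on the same strand. Whether the counting used strand is not given in the sources used here, so reads in these overlaps cannot be told apart.

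Spots with at least 500 counts and 200 features were kept, 4080 of 4992 barcodes in brain and 3726 of 4992 in heart, with 37143546 and 44613867 counts. Both sections list the same 4992 barcodes. The median spot held 5981 counts in brain and 9049.5 in heart. Ribosomal RNA took 32.9% of the brain counts and 51.3% of the heart counts, so levels were set both as CPM (counts per 1e6 counts) of the library total and as CPM of the counts outside ribosomal, mitochondrial and small structured RNA. Over the 11925 features of at least 5 CPM on average, the brain over heart ratio had a median log2 value of 0.43 on the first scale and -0.18 on the second. Marker sums matched the labels: 6 neuronal genes summed to 3228 CPM in brain and 139 in heart, and 7 cardiomyocyte genes to 31.9 and 23010. A spot can hold several cells, and fewer cells of a type cannot be told apart from less RNA per cell.

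Eno2, Eno3 and Aldoc separated the sections by a wide margin, and the remaining genes did not reach 4-fold. The enolase gene with the highest level was not the same in both. Eno2, the neuronal enolase, gave 4846 counts in brain (130.5 CPM, interval 126.8 to 134.2) and 74 in heart (1.66 CPM, 1.30 to 2.08), a level 78.7-fold higher in brain (62.5 to 100.3). Eno3, the muscle enolase, gave 55 counts in brain (1.48 CPM, 1.12 to 1.93) and 4950 in heart (111.0 CPM, 107.9 to 114.1), 74.9-fold higher in heart (57.5 to 99.6). Each of these genes was thus abundant in 1 section and near the bottom of the range in the other. Aldoc, the brain aldolase, had 1204 counts in brain (32.4 CPM, 30.6 to 34.3) and 23 in heart (0.516 CPM, 0.327 to 0.774), 62.9-fold higher in brain (41.7 to 99.6).

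The low sides of these 3 ratios were compared with a background, the counts per kb of span of 1490 olfactory and vomeronasal receptor genes, which neither tissue is known for. Heart Aldoc stood at 1.24 times this background and heart Eno2 at 1.99 times. Brain Eno3 stood at 4.15 times. With that background subtracted the log2 ratio moved from 5.97 to 8.34 for Aldoc and from 6.30 to 7.30 for Eno2.

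When a gene was called on a ratio of 4 or more with 20 CPM in the higher section, 2 of the 10 genes were higher in brain (Aldoc and Eno2) and 1 in heart (Eno3). Among the 6345 features that reached 20 CPM in a section, 17.2% passed that rule toward brain and 5.41% toward heart. On the scale outside ribosomal RNA the same 3 genes passed, beside 8.42% and 9.14% of 9586 features. The median log2 ratio over the 10 genes was 0.35 on the first scale and -0.26 on the second.

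**Figure D1:**
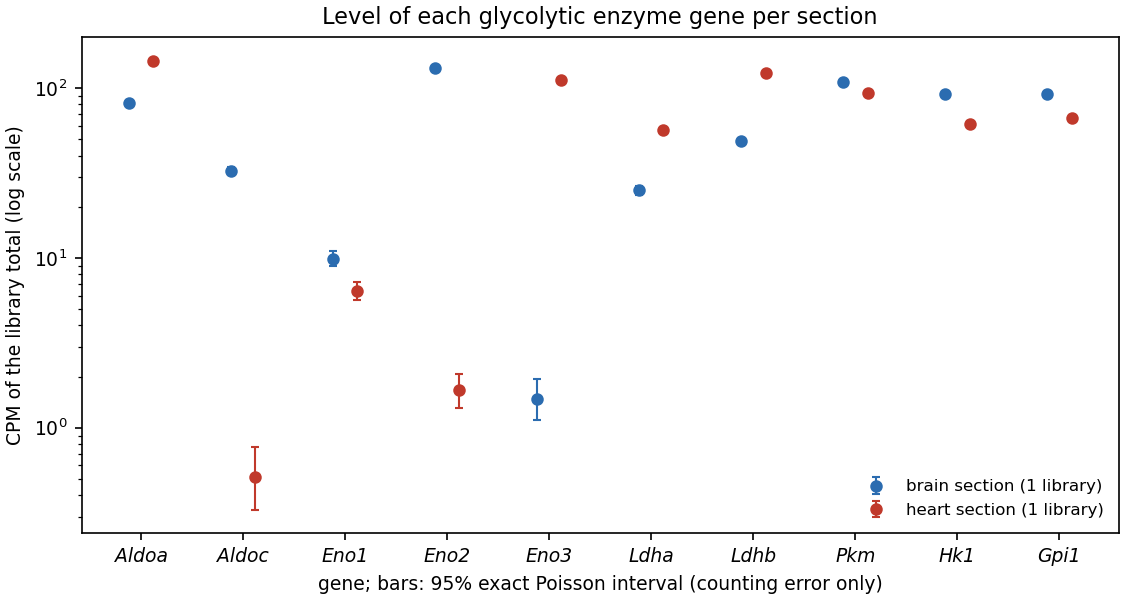
Level of the 10 genes in each section, in CPM of the library total on a log axis, with 1 point per library and bars for the exact Poisson interval. Eno2 (130.5 CPM in brain, 1.66 in heart), Aldoc (32.4 and 0.516) and Eno3 (1.48 and 111.0) lie far apart, and the points of Pkm (108.8 and 92.7) lie close together.

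Lactate dehydrogenase and Aldoa were higher in heart by smaller factors. Ldhb gave 1808 counts in brain (48.7 CPM) and 5462 in heart (122.4 CPM), 2.52-fold higher in heart (2.38 to 2.65). Ldha gave 927 counts (24.96 CPM) and 2514 (56.4 CPM), 2.26-fold higher in heart (2.09 to 2.44). Both subunits thus differed in the same direction and by similar factors. Aldoa gave 3035 counts (81.7 CPM) and 6414 (143.8 CPM), 1.76-fold higher in heart (1.69 to 1.84). Outside ribosomal RNA the factors grew to 3.84 for Ldhb, 3.45 for Ldha and 2.69 for Aldoa. The second feature named Aldoa held only 34 counts in brain and 35 in heart and was kept apart.

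For Pkm, Hk1, Gpi1 and Eno1 the direction or the size of the difference rested on the scale. Pkm, which makes pyruvate in the last step, gave 108.8 CPM in brain and 92.7 in heart, 1.17-fold higher in brain. Outside ribosomal RNA it was 1.30-fold higher in heart (1.24 to 1.36). Its splice forms cannot be separated in counts per gene. Gpi1, at the second step, gave 92.6 and 66.7 CPM, 1.39-fold higher in brain, and outside ribosomal RNA was 1.10-fold higher in heart (1.05 to 1.16). Hk1, which starts the pathway, gave 91.5 and 61.6 CPM, 1.49-fold higher in brain, and outside ribosomal RNA was 1.03-fold higher in heart with an interval that spans 1 (0.976 to 1.08). Eno1 gave 9.88 and 6.39 CPM, 1.55-fold higher in brain, and outside ribosomal RNA its ratio was 1.01 (0.866 to 1.19). Pkm and Gpi1 thus turned direction between the scales, and the intervals of Hk1 and Eno1 spanned 1 on the second.

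**Figure D2:**
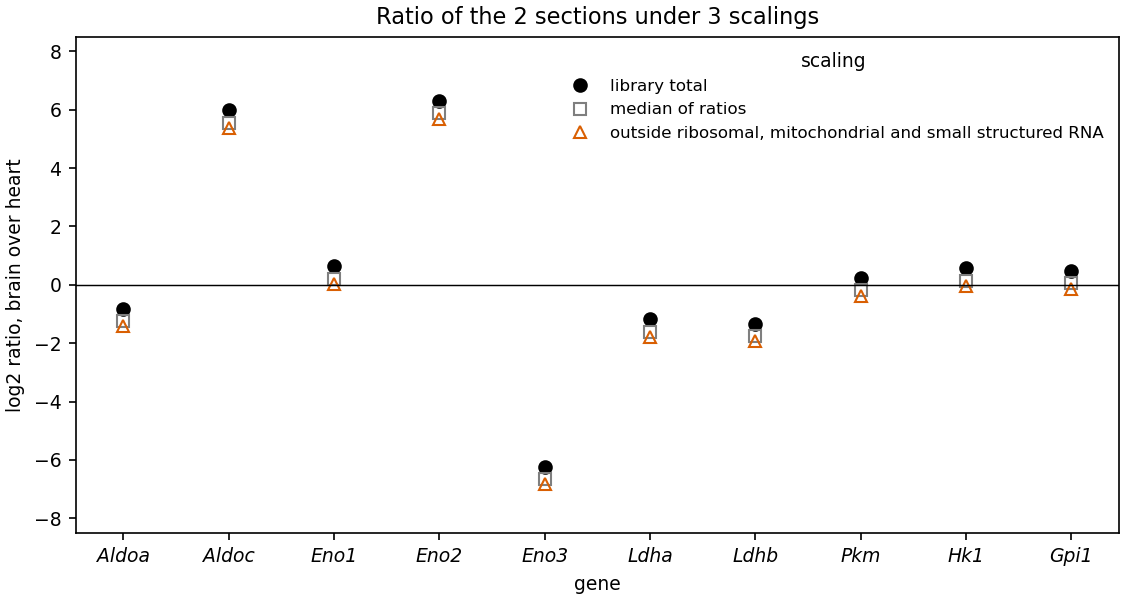
Log2 ratio of brain over heart for the 10 genes under 3 scalings, with a line at 0. Eno2, Aldoc and Eno3 lie far from 0 under each. Their points nearest 0 are 5.37 for Aldoc outside ribosomal RNA and, below 0, -6.23 for Eno3 on the library total. The points of Pkm, Hk1 and Gpi1 fall on both sides of 0.

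Within an enzyme the share of each gene does not depend on the scaling between sections. Shares were taken on counts per kb of exonic length, since longer messages give more randomly primed counts. That length is the union of all annotated exons, which can exceed the length of a message by unlike amounts. It was 3.31 kb for Ldha and 1.57 kb for Ldhb, next to principal transcripts of 1.77 kb and 1.30 kb. The shares therefore depend on this choice, and other lengths are given further below. Eno2 made up 91.2% of enolase in brain (90.2 to 92.1), with 6.04% for Eno1 and 2.80% for Eno3. In heart Eno3 made up 97.6% (97.4 to 97.9), with 1.82% for Eno1 and 0.540% for Eno2. The leading gene was thus exchanged. In counts not divided by length the 3 genes summed to 141.8 CPM in brain and 119.0 in heart. That sum was 1.19-fold higher in brain on the library total, and 1.28-fold higher in heart outside ribosomal RNA. Per kb of exonic length the leading genes lay further apart, at 27.7 CPM for Eno2 in brain and 63.8 for Eno3 in heart. The sum of counts therefore does not show that enolase as a whole was alike.

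The size of these enolase shares depended on the length used for Eno1. Dividing by only those words of the principal transcript that no other gene shares moved Eno1 to 26.9% in brain and 13.7% in heart. Eno2 then stood at 71.7% in brain and Eno3 at 85.6% in heart. Each was still the leading gene of its section. That length applies only if reads from shared stretches were dropped in counting, and how they were treated is not given in the sources used here.

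Aldolase was mixed in brain and almost wholly Aldoa in heart. Aldoc made up 25.7% of aldolase in brain (24.5 to 27.0) and 0.313% in heart (0.199 to 0.469). Aldoa made up 72.7% in brain and 97.9% in heart. With the lengths of unshared principal-transcript words, the brain share of Aldoc was 15.5%.

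Lactate dehydrogenase kept nearly the same mix in both sections. Ldhb made up 80.4% in brain (79.2 to 81.7) and 82.1% in heart (81.4 to 82.8). The summed counts of both genes were 2.43-fold higher in heart on the library total (2.32 to 2.54) and 3.705-fold higher outside ribosomal RNA. The intervals of the shares overlap narrowly, which does not show that the shares are equal.

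With the other isoforms of the pathway counted, phosphoglycerate mutase also exchanged its leading gene. Hexokinase did so per kb of exonic length, but not with every length. These shares, and those of phosphofructokinase, were added after their values had been seen. Hk1 made up 73.6% of hexokinase in brain (71.8 to 75.3) and 28.6% in heart (27.6 to 29.6), where Hk2, the hexokinase of insulin-responsive muscle, made up 55.0% (53.8 to 56.3). With unshared principal-transcript words the order of Hk1 and Hk2 in heart turned, to 44.6% and 41.9%. Hk2 gave 4.90 CPM in brain and 82.9 in heart, 16.9-fold higher in heart (14.6 to 19.8). Its brain level stood at 1.48 times the receptor background, and subtracting that moved the log2 ratio from -4.08 to -5.64. Pkm made up 99.1% of pyruvate kinase in brain and 98.8% in heart, with Pklr, the liver and red-cell gene, near background in both (0.942 and 0.803 times).

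**Figure D3:**
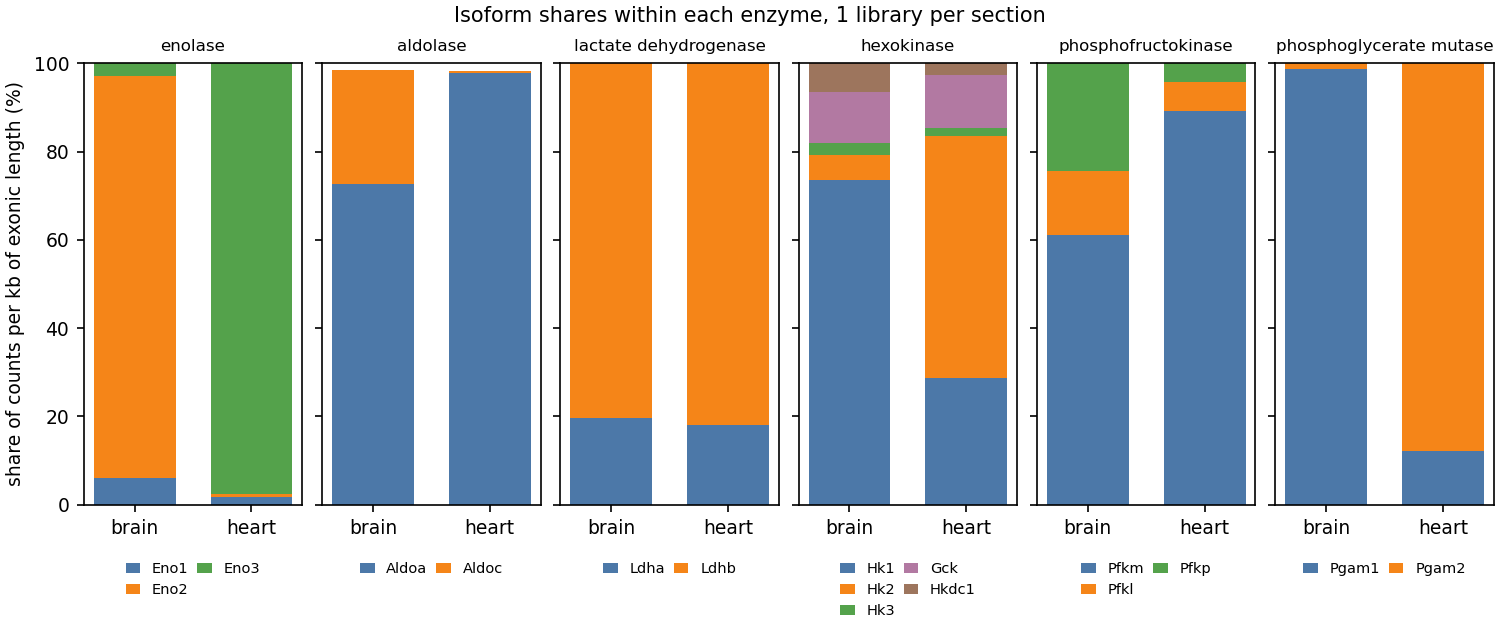
Share of each gene within 6 enzymes, in percent of counts per kb of exonic length, with 1 stacked bar per section. Enolase goes from 91.2% Eno2 in brain to 97.6% Eno3 in heart, and phosphoglycerate mutase from 98.7% Pgam1 to 87.8% Pgam2, while lactate dehydrogenase stays at 80.4% and 82.1% Ldhb. The aldolase bars show Aldoa and Aldoc only and so stop short of the full height.

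Beyond the 10 genes, a list of 36 other genes of glycolysis and pyruvate handling was examined, of which 19 reached 20 CPM in a section. By the same rule 2 were higher in brain, 5 in heart and 29 in neither, the last including every gene below 20 CPM. Of the 6345 features that reached 20 CPM, 17.2% and 5.41% were called. The median log2 ratio was -0.28 over the list and 0.43 over the 11925 features of at least 5 CPM on average. Outside ribosomal RNA these medians were -0.89 and -0.18. The list medians also take in genes below 5 CPM, so the sets differ. The 2 in brain were Pgam1, the general phosphoglycerate mutase (57.1 and 13.7 CPM, 4.18-fold), and Slc2a3, the neuronal glucose transporter (46.7 and 10.9 CPM, 4.28-fold). Neither passed outside ribosomal RNA. For Pgam1, 100% of the 50-base coding words occurred in transcripts of other genes, so its counts are uncertain, as for Eno1.

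The 5 in heart were Pgam2, Slc2a4, Pdk4, Hk2 and Slc16a1. Pgam2, the muscle phosphoglycerate mutase, gave 12 counts in brain and 1865 in heart, 129-fold higher in heart (73.9 to 251). Slc2a4, the insulin-regulated glucose transporter, was 61.5-fold higher in heart (38.8 to 104), and Pdk4, a kinase that inactivates pyruvate dehydrogenase, 29.8-fold higher (25.6 to 34.8). Slc16a1, a lactate and pyruvate transporter, was 4.71-fold higher. Brain Slc2a4 rested on 18 counts, 1.28 times the receptor background, and subtracting that moved its log2 ratio from -5.94 to -8.12. Brain Pgam2 stood at 2.298 times that background. Outside ribosomal RNA these 5 were joined by Pfkfb1 and Pdha1. Of genes with 1 main form, Tpi1 was 1.20-fold and Gapdh 2.38-fold higher in heart, and 1.83-fold and 3.635-fold outside ribosomal RNA. Pgk1 was 1.32-fold higher in brain but 1.16-fold higher in heart outside ribosomal RNA. For Gapdh and Pgk1, 100% of the 50-base coding words occurred in transcripts of other genes, next to 83.3% for Eno1. Their counts are therefore uncertain too.

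Phosphofructokinase, the main control point of the pathway, shifted its mix. Pfkm, the muscle form, made up 61.2% in brain and 89.2% in heart, and Pfkp, the platelet form, 24.3% and 4.31%. With unshared principal-transcript words Pfkp led in brain at 49.5%, with 37.0% for Pfkm. In counts Pfkp held 2768 in brain and 1017 in heart.

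The share of spots with a count was compared after thinning each spot to 2800 counts, which 3060 brain and 2939 heart spots allowed and 1020 and 787 were too shallow for. Eno2 was seen in 29.9% of brain spots (28.3 to 31.6) and 0.647% of heart spots (0.390 to 1.01). Eno3 was seen in 0.392% (0.203 to 0.684) and 26.1% (24.6 to 27.8). Aldoc was seen in 10.4% and 0.204%. As a measure of stray counts, the cardiomyocyte gene Myh6 was seen in 0.425% of brain spots, next to 98.0% of heart spots, and the neuronal gene Snap25 in 1.497% of heart spots, next to 80.2% of brain spots. The heart shares of Eno2 and Aldoc and the brain share of Eno3 lay at or below those of Snap25 and Myh6. Other markers gave other levels. In brain Actc1 was seen in 0.261% of spots, below Eno3, and Tnnt2 in 0.458%. In heart Map2 was seen in 7.76% and Syt1 in 14.7%. The markers were not matched to these genes in span. Those marker genes carry stray counts of their own, so these shares alone do not tell background from low expression, and brain Eno3 stood at 4.15 times the receptor background. Without thinning Eno2 was seen in 48.4% of brain spots and 1.91% of heart spots, and Eno3 in 1.18% and 54.3%.

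Spots were then grouped by expression within each section, with these genes, the other glycolysis genes and the cell type markers left out of the grouping, which gave 10 regions in brain and 6 in heart. Spot positions were not used here, so regions are named by number and leading genes. Regions of 1 section are not replicates.

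Ldhb and Ldha parted most clearly in brain region 4 (666 spots, led by Shox2, Prkcd and Synpo2). Ldhb gave 98.2 CPM there (89.96 to 107), the highest of the 10 regions and 2.43-fold over the rest of the section (2.19 to 2.69). Ldha gave 8.62 CPM (6.31 to 11.5), 3.21-fold lower than the rest. Ldhb thus made up 96.0% of lactate dehydrogenase in that region (94.7 to 97.1). A similar share of 95.9% (90.4 to 98.7) in region 10 (30 spots, led by Gpr151, Chrna3 and Chrnb4) rested on 60 counts of the 2 genes. The lowest share was 66.0% (61.2 to 70.6) in region 6 (319 spots, led by 4921539H07Rik, Neurod6 and Ctxnd1), so the brain regions spread to both sides of the heart share. In counts not divided by length, Ldhb (177) fell below Ldha (192) in region 6, at 48.0%. Which subunit led there thus depended on the length. In heart the share per kb ran only from 76.1% to 83.3%.

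Region 4 also had the highest Eno2 (176.9 CPM, 165.8 to 188.5) and the highest Pkm (142.0 CPM) of the brain regions. Eno2 was lowest in region 3 (58.3 CPM, 48.0 to 70.1) and low in region 9 (76.1 CPM) and region 5 (83.3 CPM). Region 3 (694 spots, led by Ptgds, Thbd and Aebp1) was shallow, at a median of 1412 counts, and region 9 (64 spots, led by Dsp, Maml2 and Slc29a4) deep, at 33821. The 6 neuronal genes summed to 1746 CPM in region 3 and 1663 in region 5, next to 3127 in region 4 and 3962 in region 1. In region 9, where Eno2 was also low, they summed to 3381. Their part in the Eno2 levels was not tested.

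Aldoc took a different course from Aldoa across the brain. It was highest in region 3 (59.8 CPM, 49.4 to 71.7) and region 2 (50.2 CPM), and lowest in region 9 (14.3 CPM) and region 6 (15.2 CPM). Aldoa was lowest in region 3 (45.4 CPM) and highest in region 6 (114.7 CPM, 105.9 to 124.1). The share of Aldoc within aldolase accordingly ran from 10.5% (8.39 to 12.8) in region 6 to 52.1% (45.1 to 59.0) in region 3. The 7 astrocyte genes summed to 2450 CPM in region 3, the highest of the regions, and to 934 in region 6, but to 1640 in region 9 and 1129 in region 2, against the order of Aldoc there. Region 3 also had the highest sums of 6 fibroblast genes (350 CPM) and 5 endothelial genes (262 CPM), and the part of any of these in the Aldoc level was not tested. Across the 10 regions the correlation of Aldoc with the astrocyte sum was 0.29, that with the oligodendrocyte sum 0.54 and that with the neuronal sum -0.62.

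**Figure D4:**
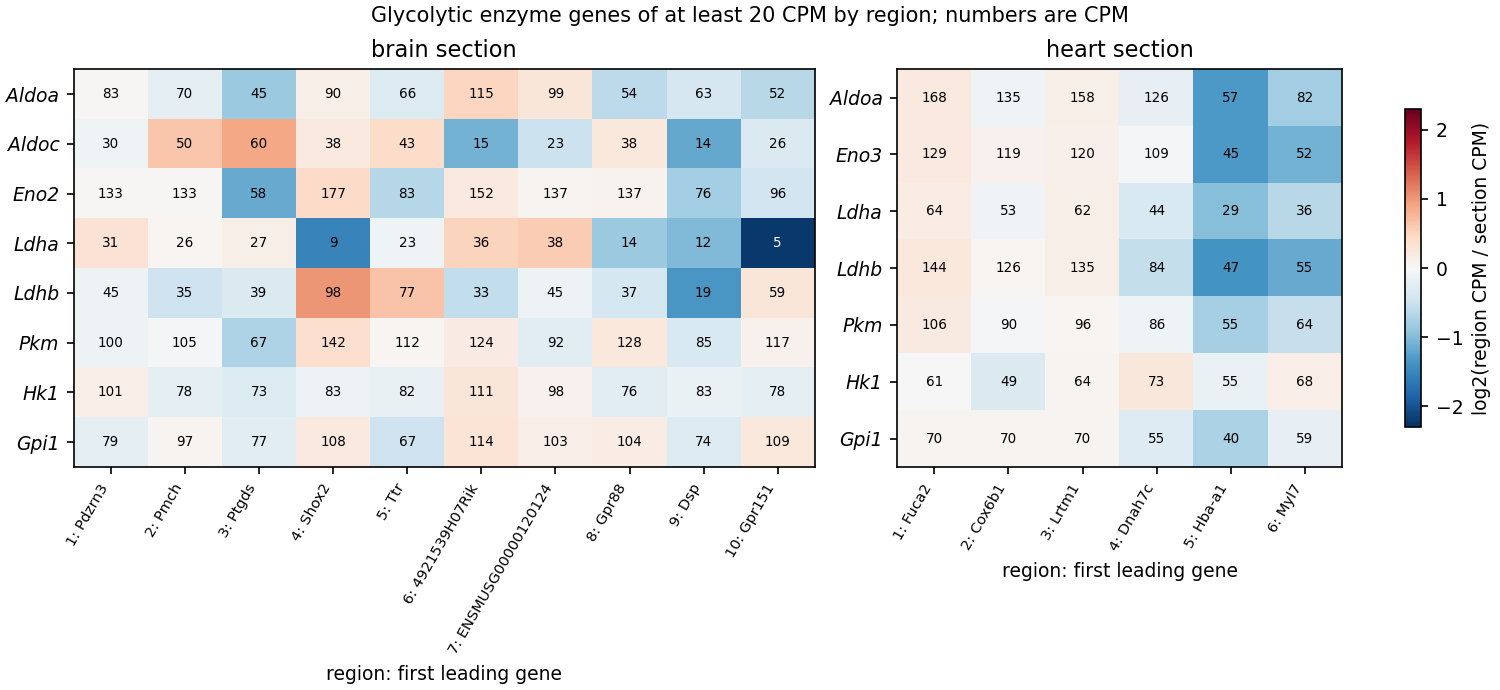
Level of each gene of at least 20 CPM in each region, with the CPM printed in the cell and the colour showing its log2 ratio to the section. In brain, region 4 stands out for high Ldhb (98.2 CPM) beside low Ldha (8.62 CPM), and in heart the columns of regions 5 and 6 are low for most genes.

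In heart most of these genes moved together. Eno3 gave 129.1 CPM in region 1 (1015 spots, led by Fuca2, Trim72 and Myl3), 118.8 in region 2, 120.4 in region 3 and 109.1 in region 4, but 44.5 in region 5 and 52.4 in region 6. Region 5 (341 spots) was led by the haemoglobin genes Hba-a1, Hbb-bs and Hbb-bt, and region 6 (305 spots) by the atrial genes Myl7, Sln and Myl4. Ldhb ran likewise from 144.3 CPM in region 1 to 47.3 in region 5, and Aldoa from 168.1 to 57.2. The 7 cardiomyocyte genes summed to 26910 CPM in region 1, 7864 in region 5 and 13990 in region 6. Their part in these levels was not tested.

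For Hk1 the course depended on the scale. On the library total it gave 61.4 CPM in region 1, 55.2 in region 5 and 68.2 in region 6. On that scale it was highest in region 4 (73.4 CPM, on 35 counts) and lowest in region 2 (48.7 CPM). Outside ribosomal RNA it gave 167.1, 114.0 and 140.9, highest in region 1 and lowest in region 5, as were Aldoa and Ldhb on that scale. Its share of hexokinase was 27.3% in region 1 and 44.1% (40.0 to 48.2) in region 6, and that of Hk2 59.8% (57.7 to 61.8) and 36.6% (32.6 to 40.8). Over the 6 regions, on the library total, the correlation with the cardiomyocyte sum was 0.17 for Hk1 and between 0.92 and 0.99 for Aldoa, Eno1, Eno3, Ldha, Ldhb, Pkm and Gpi1. The regions share 1 library and differ in depth, so these correlations are descriptions. Eno2 was highest in region 6 of the heart (24 counts, 4.73 CPM, 3.03 to 7.04), where it made up 3.13% of enolase (2.00 to 4.68).

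**Figure D5:**
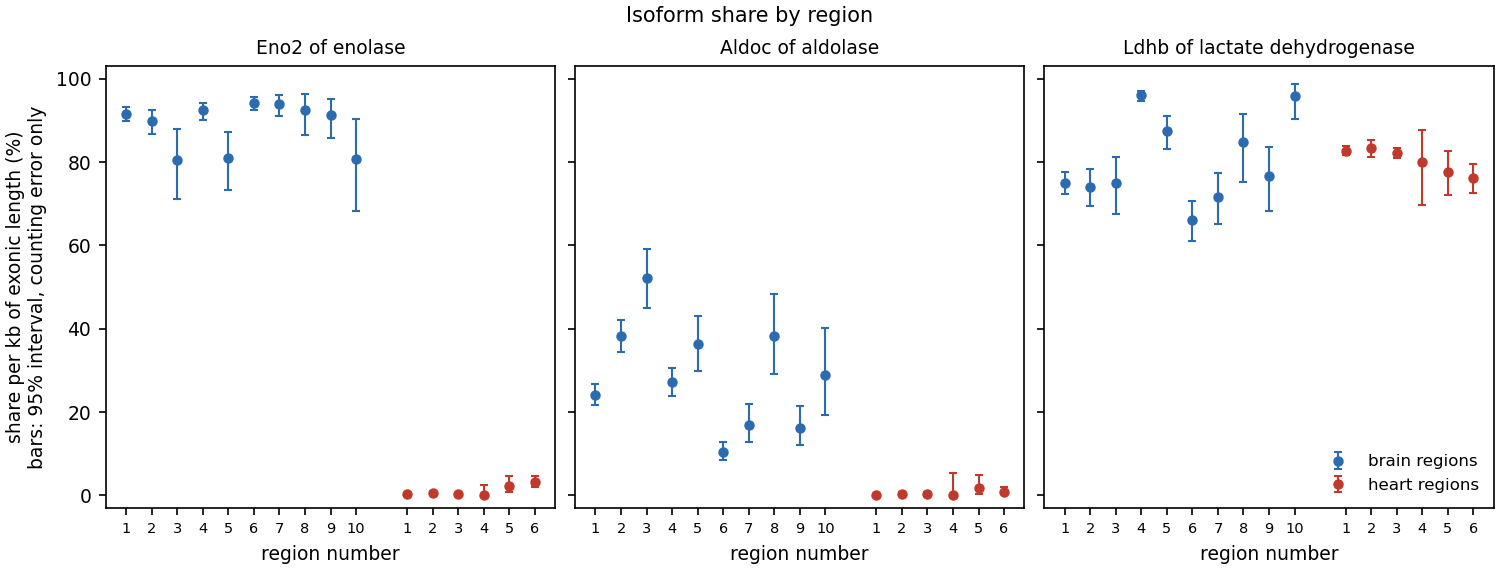
Share of Eno2 in enolase, Aldoc in aldolase and Ldhb in lactate dehydrogenase by region, in percent of counts per kb of exonic length, with bars for the 95% interval. Aldoc spans 10.5% to 52.1% and Ldhb 66.0% to 96.0% over the brain regions, and the heart regions lie at 3.13% or less for Eno2 and 1.70% or less for Aldoc.

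The features whose levels across regions were most like those of the members were found by Pearson correlation of log2(CPM + 1). In brain (10 regions, 5556 features) they included Ttyh1, mt-Tl1 and mt-Tm for Aldoc (0.95 to 0.94), Hspa8 and Dnaja1 for Eno2 (0.95 and 0.94), Nefh, Ddb1 and Nxph1 for Ldhb (0.90 to 0.87), Serinc1, Syp and Cntnap1 for Aldoa (0.93 to 0.92) and Dkk3 and Ptpru for Ldha (0.90 and 0.89). In heart (6 regions, 4323 features) they were Ndufb10, Tuba8 and Hadha for Eno3, Ywhag, Bsg and Mb for Ldhb, Atp5g1, Pygm and Tmem63b for Aldoa, and Naca, Ptgr2 and Gapdh for Ldha, all at 0.99 or more. With so few regions many features reach such values, and the points share 1 library.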

How the data were processed

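Per the submitters' processing notes, the authors used STARsolo and genome build mm39; versions, molecular-tag merging, intron counting and use of strand are not given in the sources used here. The deposited values are whole-number counts per feature and barcode. Of 40276 features, 35551 were found by gene ID in GENCODE mouse release 21 (GRCm38), which gave lengths, chromosomes, overlaps and sequences but no coordinates.

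Spots with at least 500 counts and 200 features were summed per section and scaled to CPM. Levels have exact Poisson intervals and ratios exact conditional binomial intervals (95%, counting error only, each count taken as a separate molecule). A feature was called at 4-fold and 20 CPM. Isoform shares use counts per kb of exonic union length. The share interval first planned, a binomial interval with the other genes held in proportion, was too narrow for enzymes of 3 genes: on simulated data its coverage over 24 settings went down to 91.7%. It was replaced by an interval that carries the counting error of the other genes, which covered 94.7% to 99.3%. Ratio intervals covered 95.1% to 96.2%. Where the enzyme has 2 genes both share intervals are the same.

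Regions came from Leiden clustering (scanpy 1.11.5, resolution 0.6, 2000 variable features, 20 principal components, 15 neighbours, seed 1). Leading genes had the largest fold over the rest at 50 CPM or more, and ribosomal and mitochondrial features were skipped for them, a choice made after values were seen. Doublets do not apply to spots. TMM factors came from edgeR 4.0.16.

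The members and lists were chosen with earlier results of these data known. Named were the 10 genes, the other isoforms, glycolysis genes of at least 20 CPM, the 3 most alike features and the 3 leading genes per region. Chosen after values were seen were the Aldoa feature used, the shares of hexokinase, pyruvate kinase, phosphofructokinase and phosphoglycerate mutase, the lengths by transcript words, and the 4 ribosomal-RNA-overlapping gene names counted as ribosomal. Some items that these rules name are not reported here, and the aldolase shares are taken over all aldolase genes counted.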

Additional observations from a re-analysis of the deposited data

Results flagged for a closer look

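Counts of the 10 genes were also found in barcodes below the spot threshold, which the reported values leave out and only the alternative with all barcodes takes in. In brain 912 such barcodes held 76 counts of these genes, or 484 CPM of their total (382 to 606), next to 622 CPM in the kept spots. In heart 1266 such barcodes held 106, or 685 CPM (561 to 828), next to 663 CPM. The series has no control sample without tissue, so the level in empty barcodes was not measured.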

How the results depend on the processing

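Eno2, Aldoc and Eno3 kept their direction and their place past 4-fold under every scaling, spot threshold and spot weighting tried. Log2 ratios of brain over heart ran from 5.69 to 7.30 for Eno2, 5.37 to 8.34 for Aldoc and -6.84 to -5.90 for Eno3. Outside ribosomal RNA the direction turned for Pkm (-0.38), Gpi1 (-0.14), Pfkl (-0.24) and Pgk1 (-0.21). The value of Hk1 (-0.038) also changed sign there, with an interval on both sides of no difference. With median-of-ratios size factors it turned for Pkm (-0.19), Pfkl (-0.060) and Pgk1 (-0.029), and with each spot weighing the same for Pfkl (-0.058). At 2-fold 3 of the 10 genes were higher in heart. Of the 36 other genes, 0 were higher in brain outside ribosomal RNA, with median-of-ratios factors and with equal spots, 4 with the receptor background subtracted, and 4 at 2-fold, where 11 were higher in heart. Shares over all features were taken only at 4-fold, on the library total and outside ribosomal RNA. The counts under the other settings therefore have no general rate beside them and show no lean of the list.

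The shares moved with the length used, in the order of no length, gene span, longest coding sequence, unshared exonic words, principal transcript and its unshared words. Ldhb in brain was 66.1%, 60.9%, 67.8%, 82.5%, 72.5% and 75.0%, and in heart 68.5%, 63.5%, 70.1%, 84.0%, 74.6% and 77.0%. Eno3 in heart was 93.2%, 96.8%, 93.2%, 97.02%, 94.99% and 85.6%, and 98.2% with the background subtracted. Eno2 in brain was 92.6% by gene span, 89.3%, 88.9% and 71.7% by the last 3 lengths, and 92.2% with the background subtracted. Aldoc in brain was 28.1%, 31.1% and 30.9% by the first 3 lengths, 17.5% and 15.5% by the last 2, and 34.4% with equal spots. The last 3 lengths were chosen after seeing the data. Lengths by words that occur once in the genome were not run, since no genome was used here. At Leiden resolutions of 0.3 and 1 the highest Aldoc share of a brain region was 44.8% and 43.3%, and the highest Eno1 share 21.6% and 20.7%, next to 52.1% and 11.95%. No paired analysis was possible because each tissue has 1 library. Depth limits the low values: heart Aldoc rested on 23 counts and brain Eno3 on 55.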
